A study of Rattus norvegicus with 3 samples.

Results

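Semaphorins are secreted or membrane-bound guidance ligands, plexins are their signalling receptors, and neuropilins are the co-receptors through which most class 3 semaphorins act. Genes were taken by symbol, as every semaphorin of classes 3 to 7, every plexin and both neuropilins named in the deposited gene list, which gave 26 of 17328 genes. These were 19 semaphorins (Sema3a to Sema3g, Sema4a, Sema4b, Sema4c, Sema4d, Sema4f, Sema4g, Sema5a, Sema5b, Sema6b, Sema6c, Sema6d and Sema7a), 5 plexins (Plxna2, Plxna3, Plxnb2, Plxnb3 and Plxnd1) and 2 neuropilins (Nrp1 and Nrp2). RNA of single nuclei was measured in the lesion epicenter of the injured spinal cord of wild-type (WT) SD rats, 17 weeks old, at day 49 after injury. One library came from injured cord with no treatment, 1 from cord that had carried an implanted scaffold for 7 days, and 1 from cord with a scaffold that released hepatocyte growth factor (HGF) for the same 7 days. All 3 groups carried the injury, and the number of animals behind a library is not stated in the labels.

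Class 3 semaphorins are secreted and bind a neuropilin that in turn joins a class A plexin or Plxnd1, with Sema3e as the exception that binds Plxnd1 directly. Some of them are known to turn growth cones or endothelial tips away. Classes 4 to 7 are held at the membrane and bind plexins without a neuropilin, class 4 largely the B plexins and class 6 the A plexins. In the injured cord the family is known for class 3 ligands made by scar-forming meningeal cells and fibroblasts, which act on cut axons, and Nrp1 also serves vascular endothelial growth factor in vessels.

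The libraries held 2252, 2168 and 906 nuclei (untreated, scaffold and HGF scaffold, the order used throughout), of which 2248, 2167 and 905 were kept, with 5947483, 5788467 and 1448657 unique molecular identifiers (UMIs) and a median of 1408, 1639 and 1047 UMIs per nucleus. Nuclei were clustered without the 26 genes, and 20 of 21 clusters were named from lists of marker genes. Spinal neurons, astrocytes and oligodendrocytes were found by their markers in all 3 libraries, beside meningeal, fibroblast, endothelial, Schwann and myeloid nuclei. The macrophage-like class held 46, 439 and 376 nuclei and the meningeal-like class 607, 433 and 109. Fewer nuclei of a type and less RNA per nucleus cannot be told apart in sums over all nuclei. Only 4 barcodes occurred in more than 1 library. A single library stands for each group, so the groups were not tested against each other. UMIs were summed per library and lineage and are given as CPM, the UMIs scaled to the same total in every library and lineage, and every 95% interval here covers counting error only and not the difference between animals. Ratios were read for genes that had 20 or more UMIs summed over the compared libraries, in lineages with at least 50 nuclei in both, and a ratio past 2-fold is at least 2 or at most 0.5. Ratios within lineages were recomputed under up to 12 alternatives for weighting, thinning, filtering and assigning the nuclei, and a range or single value is given where a ratio past 2-fold did not stay past it in each.

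All 26 genes had UMIs in each library, 17479, 14522 and 3669 UMIs in all. The fewest in the untreated library came from Sema6c, with 8 UMIs (9 and 2 in the others), and the most from Nrp1, with 2744 (1926 and 524). Over the 10 lineages with at least 10 nuclei in every library, 10 of the 26 genes had their highest level in the same lineage in all 3 libraries. They were Sema3a in meningeal-like nuclei, Sema3e, Sema5b, Plxna3 and Plxnb3 in oligodendrocyte precursor-like nuclei, Sema3f, Sema3g and Nrp1 in endothelial-like nuclei, Sema4c in Schwann-like nuclei and Nrp2 in macrophage-like nuclei. For 2 of them, Sema5b and Nrp1, the interval of the highest lineage lay above that of the next one in every library. For the other genes of the 10, the first and second lineage overlapped in at least 1 library.

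**Figure D1:**
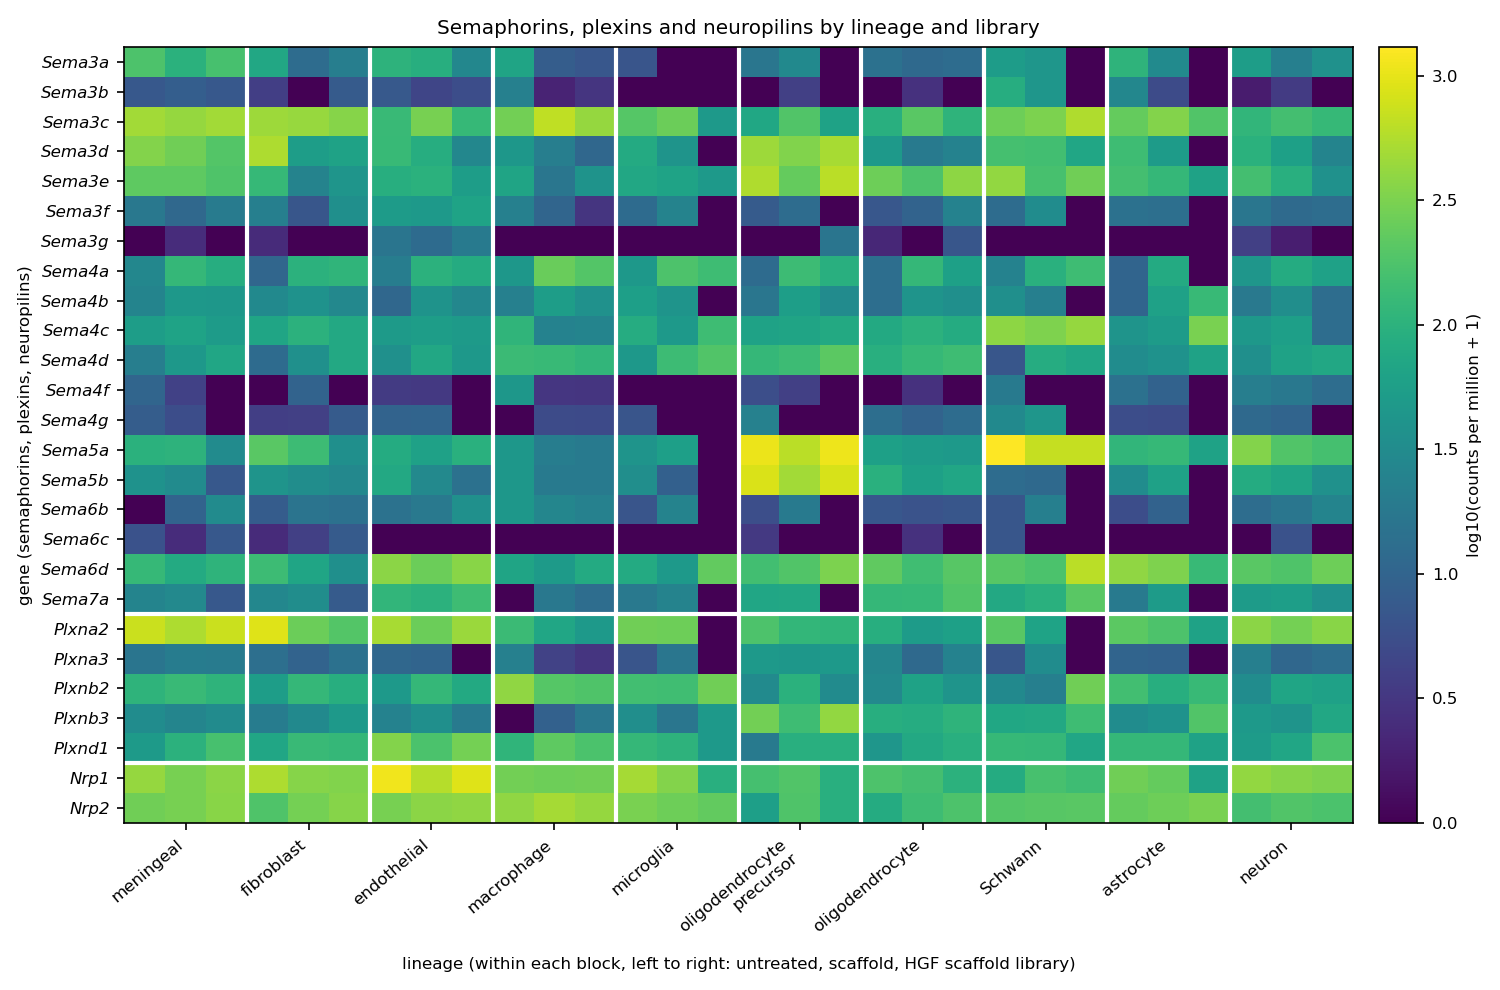
Level of the 26 genes, as log10 of CPM plus 1 (colour), in 10 lineages (blocks of columns), each block holding the untreated, scaffold and HGF scaffold library from left to right. Sema5b is bright in oligodendrocyte precursors (871, 486 and 839 CPM), Nrp1 in endothelial nuclei (1126, 581 and 922 CPM), and Sema3d drops in fibroblasts after the first column (541, 53.0 and 61.7 CPM).

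Among the secreted class 3 ligands, Sema3a, the classical collapsing factor for growth cones, stood at 174, 96.6 and 162 CPM in meningeal-like nuclei (169, 65 and 26 UMIs). Astrocyte-like nuclei came second in the untreated library with 104 CPM, and the intervals overlapped. The meningeal-like class joined 3 clusters, led by Ptgds and Igf2 (257, 205 and 24 nuclei), by Slc26a7 and Slc47a1 (190, 129 and 57) and by Slc6a13 and Slc6a20 (160, 99 and 28), so its makeup differed between libraries. Sema3c, which guides vessel and neural crest cells through neuropilins, was spread over meningeal-like nuclei (485, 421 and 485 CPM), fibroblast-like nuclei (462, 436 and 357 CPM) and macrophage-like nuclei (282, 649 and 416 CPM). No single lineage held it in all libraries. The 282 CPM rest on 13 UMIs of 46 nuclei.

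Sema3d, an axon and vessel guidance ligand, reached 541 CPM in untreated fibroblast-like nuclei (388 UMIs) and 53.0 and 61.7 CPM in the other libraries. In oligodendrocyte precursor-like nuclei it stood at 459, 334 and 503 CPM and in meningeal-like nuclei at 341, 272 and 193 CPM. Fibroblasts thus led in the untreated library alone, with an interval that overlapped that of the precursors, and precursors led in the other two. Sema3e, the ligand of Plxnd1, was highest in precursor-like nuclei with 559.5, 237 and 625 CPM, followed on average by Schwann-like nuclei (408, 159 and 278 CPM, the last from 4 UMIs) and oligodendrocyte-like nuclei (268, 173 and 387 CPM). Sema3f, a ligand that favours Nrp2, and Sema3g, a class 3 ligand of vessels, were low and highest in endothelial-like nuclei. Sema3f had 50.6, 46.8 and 63.0 CPM in endothelial-like nuclei. Sema3g had 12 of its 20, 10 of its 13 and 4 of its 6 UMIs there. Sema3b had 36, 19 and 5 UMIs in all, of which 15 and 4 were in Schwann-like nuclei of the first 2 libraries.

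Promoter sequences are shown for 4 genes because Sema3d, Sema3e and Plxna2 were lower in scaffold fibroblasts, as described further on, while the interval of Sema3c, which shares a chromosome with Sema3d and Sema3e, included 1. They are the 250 bases before the RefSeq start in build GRCr8, 5′ to 3′ on the gene strand: Sema3d chr4:23460972-23461221 (minus strand), Sema3e chr4:21510375-21510624 (minus), Plxna2 chr13:108691280-108691529 (plus) and Sema3c chr4:18699628-18699877 (minus). Capitals mark matches, on either strand, to a GC box (GGGCGG) or a CCAAT box (CCAAT).
Sema3d: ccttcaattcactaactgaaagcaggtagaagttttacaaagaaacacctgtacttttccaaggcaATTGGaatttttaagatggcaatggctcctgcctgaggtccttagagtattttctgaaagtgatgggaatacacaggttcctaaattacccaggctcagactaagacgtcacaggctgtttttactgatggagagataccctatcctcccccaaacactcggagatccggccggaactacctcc
Sema3e: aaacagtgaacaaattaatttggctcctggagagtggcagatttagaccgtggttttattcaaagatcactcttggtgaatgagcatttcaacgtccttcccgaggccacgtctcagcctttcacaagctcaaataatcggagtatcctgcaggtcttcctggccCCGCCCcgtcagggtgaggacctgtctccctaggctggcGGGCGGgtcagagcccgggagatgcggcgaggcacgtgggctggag
Plxna2: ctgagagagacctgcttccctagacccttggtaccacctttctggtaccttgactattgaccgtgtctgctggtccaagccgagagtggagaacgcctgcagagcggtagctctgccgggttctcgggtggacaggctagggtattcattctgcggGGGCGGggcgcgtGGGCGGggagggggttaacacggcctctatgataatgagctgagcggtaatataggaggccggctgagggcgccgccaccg
Sema3c: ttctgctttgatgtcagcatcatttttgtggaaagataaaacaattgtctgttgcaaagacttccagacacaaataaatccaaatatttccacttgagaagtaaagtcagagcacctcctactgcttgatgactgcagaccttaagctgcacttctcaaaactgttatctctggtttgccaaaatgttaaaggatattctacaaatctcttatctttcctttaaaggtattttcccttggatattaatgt
Sema3e and Plxna2 each held 2 GC boxes, Sema3d held 1 CCAAT box on the opposite strand, and Sema3c held neither motif. None of these matches overlapped another. The 4 windows also held no match to a TATA box (TATAAA), the element bound by the TATA-binding protein near some starts. No match was found in them to a TEAD site (GGAATG) either. An AP-1 site, searched as TGANTCA, was likewise not found in these windows. Over all 33469 promoters of the table the same window held a GC box in 30.5%, a CCAAT box in 34.0%, a TATA box in 12.9%, a TEAD site in 12.1% and an AP-1 site in 6.34%. Of the 26 genes, 20 had an entry, and 11 of these held a GC box, 6 a CCAAT box, 1 a TEAD site (Sema4f) and 0 an AP-1 site or TATA box. No single one of these motifs was found in all of Sema3d, Sema3e and Plxna2, and a GC box is common among promoters. The 6 without an entry are Sema3a, Sema3b, Sema3f, Sema4d, Sema4g and Sema5a.

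Among membrane-bound ligands, Sema5b and Sema5a carry thrombospondin repeats and steer axons in development. Sema5b stood at 871, 486 and 839 CPM in precursor-like nuclei, which held 51.1%, 42.8% and 61.1% of all its UMIs. The next of the 10 lineages reached 95, 64.5 and 69.4 CPM. Outside those 10, the 15 mural-like nuclei of the untreated library stood at 921 CPM from 27 UMIs and the 16 of the scaffold library at 257 CPM from 12. With each nucleus thinned to 500 UMIs, 32.1%, 23.0% and 29.3% of precursor-like nuclei kept a Sema5b UMI (75.6%, 54.0% and 48.8% unthinned, at median depths of 2291, 2241 and 1198 UMIs). In macrophage-like nuclei the thinned share was 1.14% and 1.06% in the 2 scaffold libraries (3.64% and 1.86% unthinned, at 1880 and 968 UMIs). Sema5a was shared by precursor-like nuclei (1067, 627 and 1098 CPM) and Schwann-like nuclei (1306, 689 and 695 CPM), whose order did not hold across libraries. In 15 mural-like nuclei of the untreated library it stood at 1399 CPM from 41 UMIs, against 64.3 CPM from 3 UMIs in 16 scaffold nuclei.

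Sema4c, a Plxnb2 ligand, was highest in Schwann-like nuclei (385, 329 and 417 CPM), above the second lineage by interval in the first 2 libraries. Sema7a, a lipid-anchored semaphorin that binds integrins and plexin C1, averaged highest in oligodendrocyte-like nuclei (119, 121 and 185 CPM), where endothelial-like nuclei followed in the first 2 libraries (111 and 98.2 CPM, 139 in the third). Sema6d, a class A plexin ligand, was shared by endothelial-like nuclei (379, 258 and 364 CPM) and astrocyte-like nuclei (392, 329 and 124 CPM, the last from 2 UMIs), with 625 CPM from 9 UMIs in Schwann-like nuclei of the HGF scaffold library. Sema4d, the Plxnb1 and CD72 ligand of lymphocytes and oligodendrocytes, had overlapping levels in precursor-like (118, 135 and 213 CPM), macrophage-like (130.3, 125 and 111 CPM) and microglia-like nuclei (45.2, 135 and 185 CPM). T or NK cell-like nuclei (17, 41 and 9) were outside the 10 lineages ranked, and their Sema4d level is not given here. Sema4a, an immune semaphorin, was highest on average in macrophage-like nuclei (43.4, 255 and 188 CPM, the first from 2 UMIs). Sema4b, Sema4f, Sema4g, Sema6b and Sema6c, membrane-bound members of classes 4 and 6, had few UMIs. Sema4b averaged highest in astrocyte-like nuclei, where its values were 9.0, 59.1 and 124 CPM from 2, 14 and 2 UMIs. Sema4f had 29, 20 and 1 of its 51, 36 and 2 UMIs in neuron-like nuclei, and Sema4g averaged highest in Schwann-like nuclei at 23.9 CPM. Sema6b averaged 30.5 CPM in macrophage-like nuclei and Sema6c 4.28 CPM in meningeal-like nuclei, both near the limit of counting.

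Among the receptors, Nrp1, the co-receptor for Sema3a and for vascular endothelial growth factor, stood at 1126, 581 and 922 CPM in endothelial-like nuclei. The second lineage reached 544 CPM (fibroblast-like), 358 CPM (neuron-like) and 379 CPM (meningeal-like). Nrp2, the co-receptor for Sema3f and Sema3c, was highest in macrophage-like nuclei (391, 494 and 420.3 CPM, the first from 18 UMIs), with endothelial-like nuclei second in the scaffold libraries at 372 and 391 CPM. The 2 neuropilins thus led in different lineages. Plxnd1, the Sema3e receptor of vessels, stood at 341, 172 and 288 CPM in endothelial-like nuclei and at 109, 218 and 169.7 CPM in macrophage-like nuclei, which led in the scaffold library. Plxna2, a class A plexin that pairs with neuropilins, led in fibroblast-like nuclei of the untreated library (911 CPM) and in meningeal-like nuclei of the other two (545 and 740.0 CPM). Plxnb2, a receptor for class 4 semaphorins, was highest on average in macrophage-like nuclei (391, 195 and 182 CPM, the first from 18 UMIs). Microglia-like nuclei came next (147, 143 and 277 CPM, the last from 6 UMIs). In the HGF scaffold library Schwann-like nuclei led with 278 CPM from 4 UMIs. Plxnb3, a Sema5a receptor, was highest in precursor-like nuclei (284, 138 and 412 CPM). Plxna3, another class A plexin, stood there at 47.8, 43.9 and 45.7 CPM. Sema5a and its receptor Plxnb3 both had high summed levels in the precursor-like class, as did Sema3e and Sema5b. Whether single nuclei held these genes together was not tested.

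The scaffold library was first compared with the untreated one. Over all nuclei, 25 of the 26 genes passed the minimum. Sema4a (145 UMIs, 24.4 CPM, to 765 UMIs, 132 CPM) had a ratio of 5.42 (interval 4.53 to 6.52), and Sema4b (121 UMIs, 20.3 CPM, to 266 UMIs, 46.0 CPM) of 2.26 (1.82 to 2.82). Both were higher in the scaffold library. Sema3d (1317 UMIs, 221 CPM, to 546 UMIs, 94.3 CPM) had a ratio of 0.426 (0.385 to 0.471) and Sema5a (1633 UMIs, 275 CPM, to 774 UMIs, 134 CPM) of 0.487 (0.446 to 0.531). These were 2 of 25 past 2-fold higher and 2 of 25 lower, against 7.12% and 3.96% of the 11931 genes past the minimum. By direction, 17 of the 25 had a ratio below 1, with a median log2 ratio of −0.47 against 0.04 over all genes.

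Between the fold limits and with an interval that left out 1, the ratio was below 1 for Sema3a (0.508), Sema3b (0.542), Sema3e (0.532), Sema5b (0.532), Sema6d (0.715), Plxna2 (0.514), Plxna3 (0.657), Plxnb3 (0.693) and Nrp1 (0.721). It was above 1 for Sema3c (1.44), Sema4d (1.98), Sema6b (1.87), Plxnb2 (1.89), Plxnd1 (1.32) and Nrp2 (1.53). The genes above 1 include those highest in macrophage-like nuclei, which were 46 of the untreated and 439 of the scaffold nuclei. The sum over all nuclei moves with such shares. A setting chosen after seeing the data gave each lineage of at least 50 nuclei in both libraries the same weight in both. It left out the other lineages, macrophage-like nuclei among them. Sema4a then stood at 4.92 and Sema6b at 2.33, but Sema3d at 0.563, Sema5a at 0.671 and Sema4b at 1.87. No gene was past 2-fold lower in the nuclei kept. Within the 9 lineages compared, the median log2 ratio of the genes past the minimum lay between −0.19 and 0.15, beside 0.02 to 0.17 over all genes.

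**Figure D2:**
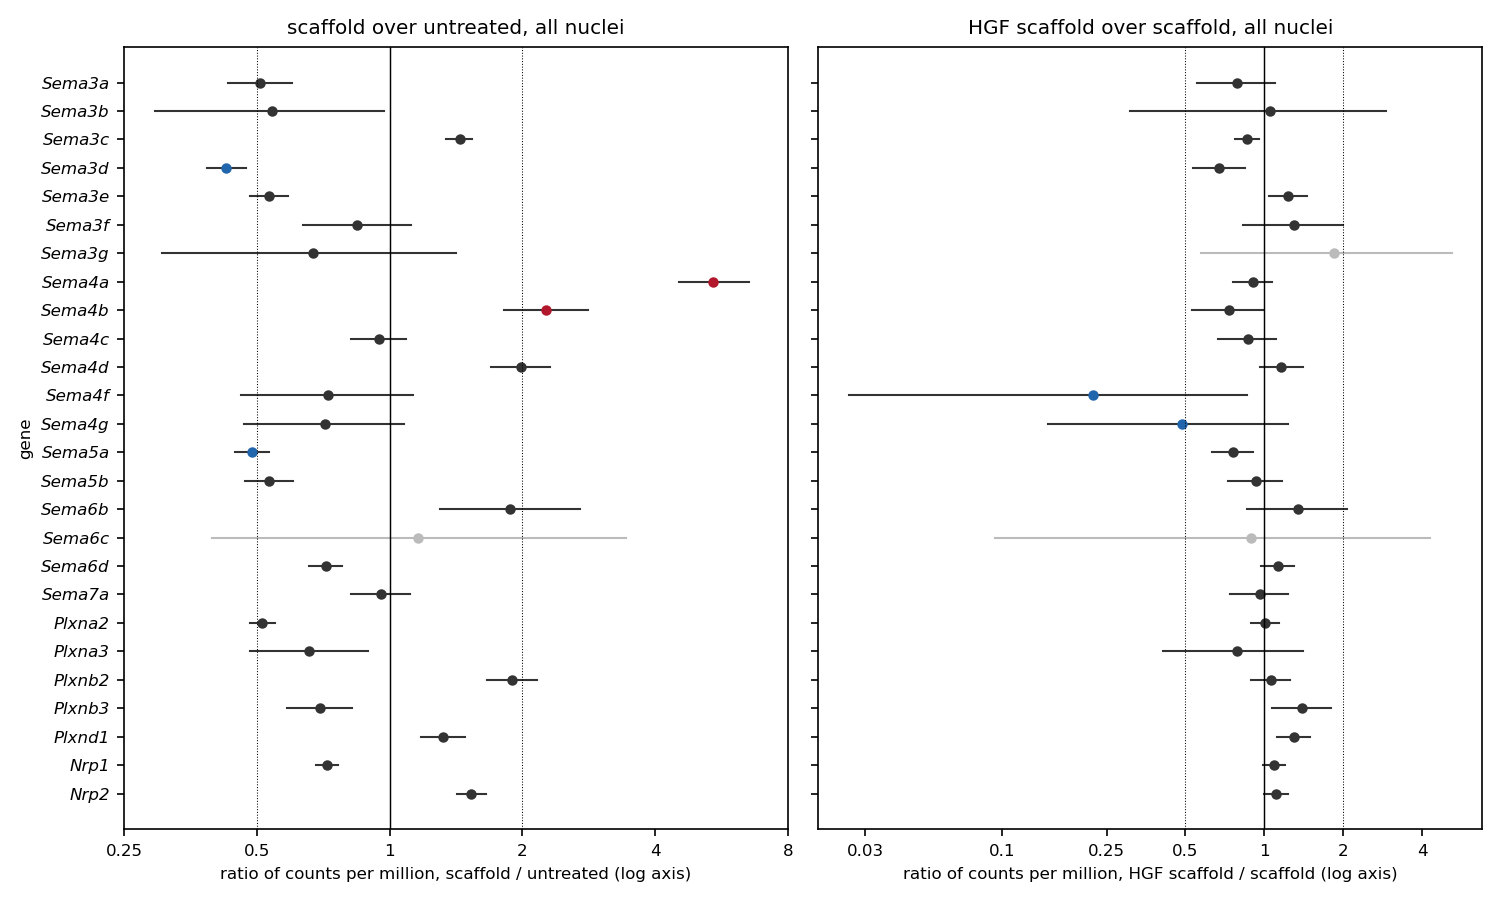
Ratio of CPM over all nuclei, scaffold over untreated (left) and HGF scaffold over scaffold (right), on log axes; points are the 26 genes, lines the 95% counting intervals, dotted lines the 2-fold limits, red and blue points past them, and grey marks genes under 20 UMIs. Sema4a lies at 5.42 on the left and at 0.904 on the right, and only Sema4f and Sema4g lie past 2-fold on the right.

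The fibroblast-like nuclei held the lowest ratio of the set. Sema3d went from 388 UMIs (541 CPM) in 274 nuclei to 18 UMIs (53.0 CPM) in 134 nuclei, a ratio of 0.0979 (0.0574 to 0.157), and stood at 61.7 CPM in the 64 nuclei of the HGF scaffold library. Plxna2 stood at 911, 259 and 192 CPM, with a scaffold over untreated ratio of 0.284 (0.225 to 0.356). Sema3e stood at 119.9, 23.5 and 41.2 CPM (ratio 0.196, 0.0821 to 0.404). Sema3a stood at 73.9, 11.8 and 20.6 CPM (ratio 0.159, 0.0419 to 0.432). Over the whole class, all 4 were higher in the untreated library than in either scaffold library, where Sema3a and Sema3e rest on few UMIs. Sema3c, by contrast, stood at 462, 436 and 357 CPM in the same nuclei. Of 18 genes past the minimum these 4 were past 2-fold lower (8.01% of 7162 genes) and 3 past 2-fold higher (8.42%), namely Sema4a (10.2), Sema4d (3.17) and Plxnb2 (2.22, 1.39 to 3.56). Plxnd1 had a ratio of 1.85, Nrp2 of 1.65, Sema6d of 0.506, Nrp1 of 0.644 and Sema5a of 0.647. With every nucleus given equal weight Plxna2 stood at 0.543, and with nuclei thinned to 500 UMIs Sema3a stood at 0.558. Assigned by their highest marker score instead of by cluster, nuclei gave ratios of 0.626 for Sema3e and 0.204 for Sema3d. Sema4d ranged from 1.47 to 3.27 over the alternatives, Plxnb2 from 1.61 to 3.08 and Sema6d from 0.450 to 1.03. The 19 fibroblast markers, summed, went from 31569 to 16593 CPM in these nuclei (ratio 0.526), so the Sema3d ratio was lower than that of the lineage's own markers. The 43 markers of microglia and macrophages went from 2283 to 6804 CPM in the same nuclei, and their part in the higher genes was not tested.

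At a finer clustering of all nuclei, chosen after seeing the data, 3 clusters were named fibroblast-like. They are called sub-clusters here, although they are not strict subsets of the fibroblast-like class above. The first was led by Col2a1, C1qtnf3 and Acan, genes known from cartilage matrix (116, 8 and 7 nuclei). The others were led by Col8a1 and Ism1 (109, 50 and 13) and by Postn and Tnn (54, 81 and 41). In the untreated nuclei of the first kind Sema3d stood at 992 CPM (215 UMIs), and the scaffold libraries held too few of them to compare. In the Postn and Tnn nuclei Sema3d stood at 221, 36.0 and 11.8 CPM (26, 8 and 1 UMIs), a scaffold over untreated ratio of 0.163 (0.0638 to 0.371). In the Col8a1 and Ism1 nuclei it stood at 349, 157 and 289.5 CPM, a ratio of 0.451 (0.201 to 0.884). The scaffold over untreated direction thus held within both kinds that were compared, and the size was smaller. The Col2a1 and Acan kind, with 215 untreated UMIs, was not compared. In the 13 Col8a1 and Ism1 nuclei of the HGF scaffold library Sema3d was nearer the untreated level (289.5 against 349 CPM). Plxna2 had a ratio of 0.350 (0.221 to 0.546) in the Postn and Tnn nuclei but 0.804 (0.608 to 1.05) in the Col8a1 and Ism1 nuclei. Sema3e had ratios of 0.0794 (0.0151 to 0.268) and 0.458 (0.0907 to 1.44), from 3 scaffold UMIs each. Sema3a had ratios of 0.794 (0.0910 to 9.51) and 0.153 (0.00377 to 0.901), from 3 and 1 scaffold UMIs. Sema3c stood at 718, 1347 and 1034 CPM in the Col8a1 and Ism1 nuclei (ratio 1.87, 1.43 to 2.43). How much of the fibroblast differences came from the shift between kinds was not tested.

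**Figure D3:**
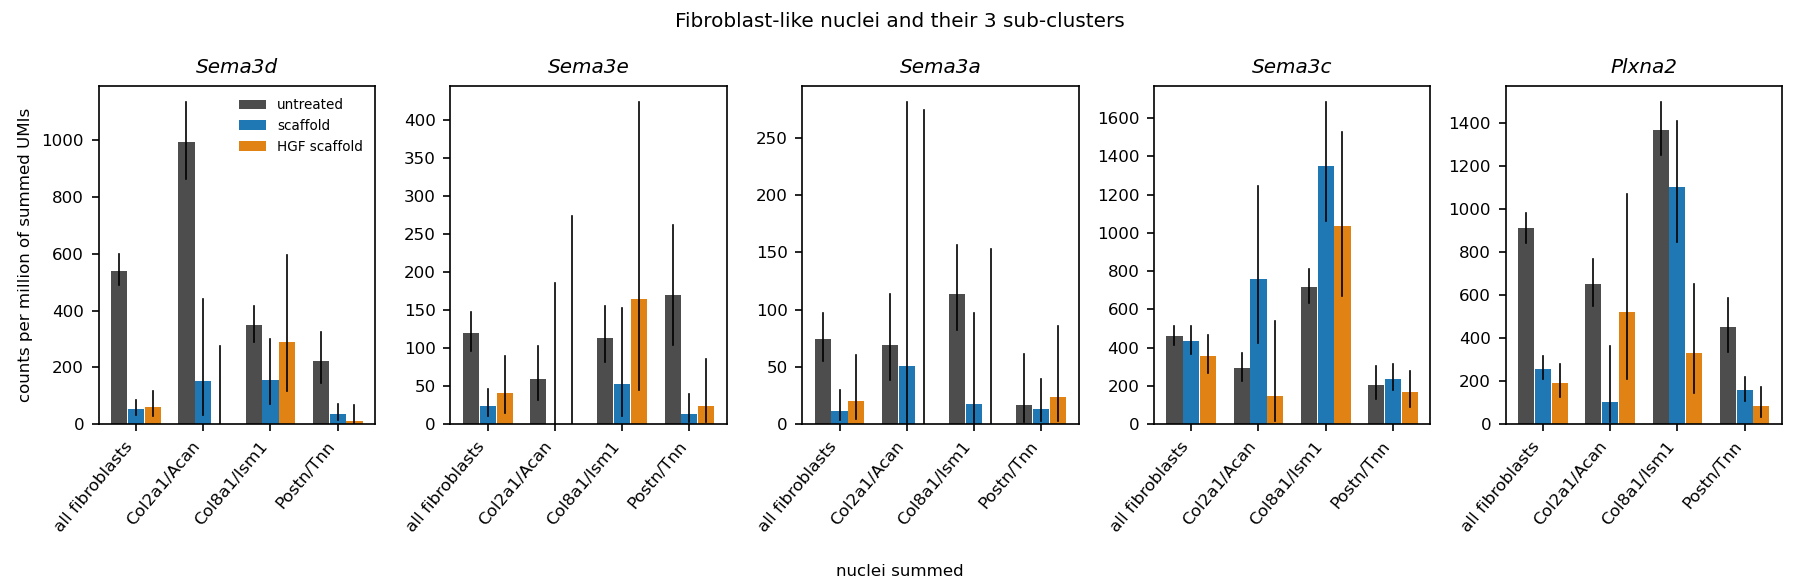
CPM of 5 genes in fibroblast-like nuclei and in the 3 fibroblast-like sub-clusters of a finer clustering of all nuclei, named by leading genes. Bars stand for the 3 libraries and lines for the 95% Poisson interval of the count. Sema3d is highest in untreated Col2a1/Acan nuclei (992 CPM) and lower in the scaffold library in the Postn/Tnn and Col8a1/Ism1 sub-clusters, while Sema3c stays closer across libraries in all fibroblasts (462, 436 and 357 CPM).

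In endothelial-like nuclei (204, 170 and 70) 3 receptors had the same pattern, lower in the scaffold library and higher again in the HGF scaffold library. Nrp1 stood at 1126, 581 and 922 CPM (ratios 0.516, 0.462 to 0.576, and 1.59, 1.34 to 1.87). Plxnd1 stood at 341, 172 and 288 CPM (0.505, 0.411 to 0.619, and 1.67, 1.23 to 2.25). Plxna2 stood at 508, 263 and 441 CPM (0.517, 0.437 to 0.609, and 1.68, 1.31 to 2.14). The 19 endothelial markers, summed, followed the same course at 9744, 5949 and 7895 CPM, with ratios of 0.611 and 1.33, and the summed 43 markers of microglia and macrophages stood in these nuclei at 1915, 7735 and 6928 CPM. Their part in the receptor values was not tested. When nuclei carrying 3 or more markers from each of 5 or more of 7 lineages were left out, Nrp1 had ratios of 0.787 and 1.07, Plxnd1 of 0.611 and 1.44 and Plxna2 of 0.607 and 1.67, so the Nrp1 ratios moved toward 1.

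Class 3 ligands in endothelial-like nuclei went other ways. Sema3c stood at 130.2, 299 and 121 CPM, a ratio of 2.30 (1.82 to 2.91) and then of 0.406 (0.263 to 0.605). With nuclei thinned to 500 UMIs the first of these was 1.42 and by the highest marker score 1.40, and the second ranged from 0.282 to 0.544 over the alternatives. Of 14 neutrophil markers, 7, 14 and 11 were detected in these nuclei, summing to 43, 927 and 436 CPM (ratios 21.6 and 0.471), and their part in the ligand values was not tested. Sema3a (102, 87.9 and 27.0 CPM) and Sema3d (124, 85.6 and 27.0 CPM) were low in the HGF scaffold library alone, with HGF scaffold over scaffold ratios of 0.307 (0.109 to 0.699) and 0.315 (0.112 to 0.719) from 6 UMIs each. The Sema3a ratio ranged from 0.0390 to 0.405 over the alternatives and the Sema3d ratio from 0.195 to 0.911, its highest with nuclei thinned. Of 21 genes past the minimum in the scaffold comparison, 5 were past 2-fold higher (9.44% of 8463 genes), Sema3c with Sema4a (4.97), Sema4b (3.84, but 1.18 without nuclei of mixed markers), Sema4d (2.06, but 0.900 with nuclei thinned to 500 UMIs) and Plxnb2 (2.47, but 1.88 by the highest marker score), and 1 lower (4.31%), Sema5b (0.383), which stood at 1.41 without nuclei of mixed markers. Sema6d had a ratio of 0.680 (1.06 at the finer clustering) and then of 1.41 (0.982 without nuclei of mixed markers).

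**Figure D4:**
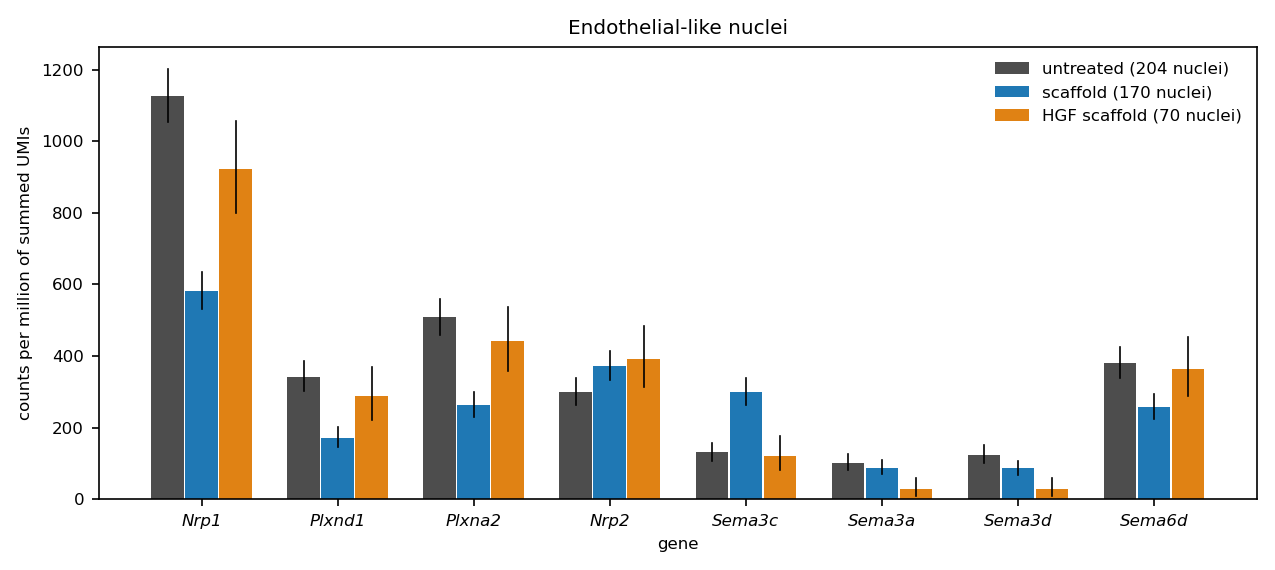
CPM of 4 receptors and 4 ligands in endothelial-like nuclei of the 3 libraries (204, 170 and 70 nuclei), with 95% Poisson intervals of the counts as lines. Nrp1, Plxnd1 and Plxna2 are lowest in the scaffold library, where Sema3c is highest (299 CPM), and Sema3a and Sema3d are lowest in the HGF scaffold library (27.0 CPM each).

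Oligodendrocyte precursor-like nuclei (131, 100 and 41) held the Sema5b shares given above. Sema5b, Sema5a, Sema3e and Plxnb3 were lower in the scaffold library. Sema5b went from 871 to 486 CPM (ratio 0.558, 0.462 to 0.671), Sema5a from 1067 to 627 CPM (0.587, 0.497 to 0.692), Sema3e from 559.5 to 237 CPM (0.424, 0.326 to 0.547) and Plxnb3 from 284 to 138 CPM (0.484, 0.339 to 0.682). In the HGF scaffold library the 4 stood at 839, 1098, 625 and 412 CPM, but 41 nuclei were too few for a ratio here. The 17 precursor markers, summed, took the same course at 24018, 13995 and 26732 CPM (ratio 0.583), close to the ratios of Sema5b and Sema5a. At the finer clustering, one precursor-like cluster was led by Tmem132d and Nxph1 (81, 63 and 17 nuclei). Another was led by Sez6l and Tnr, with Enpp6 among its leading genes (50, 32 and 23). The makeup thus differed between libraries, and its part in these values was not tested. Without nuclei of mixed markers Sema5b stood at 0.810 and Sema5a at 0.696. Over the alternatives Sema3e ranged from 0.380 to 0.634 and Plxnb3 from 0.374 to 0.570. In the same nuclei Plxnd1 went from 18.2 to 90.8 CPM (8 to 31 UMIs, ratio 4.99), Nrp2 from 56.9 to 179 CPM (3.14, but 0.561 thinned), Plxnb2 from 29.6 to 96.6 CPM (3.27, but 1.31 thinned), Sema3c from 70.5 to 184 CPM (2.62), Sema4b from 15.9 to 55.6 CPM (3.49, but 1.07 without nuclei of mixed markers) and Sema4a from 11.4 to 135 CPM (11.8, but 3.93 thinned). These 6 were past 2-fold higher (12% of 5937 genes) and 2 past 2-fold lower (3.20%). All 6 are among the genes above 1 over all nuclei, and the summed myeloid markers had a ratio of 3.20 in these nuclei, whose part was not tested. In Schwann-like nuclei (106 and 62) Sema5a (1306 to 689 CPM, ratio 0.528), Sema3e (408 to 159 CPM, 0.390) and Plxna2 (209.9 to 63.6 CPM, 0.303) were lower, the last 2 being 2 of 11 past 2-fold lower (8.52% of 3262 genes) with 0 higher (9.66%), and the 17 Schwann markers had a summed ratio of 0.575. By the highest marker score Sema3e stood at 0.790 and Plxna2 at 0.963. The summed myeloid markers had a ratio of 5.01 in Schwann-like nuclei, and their part was not tested.

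Sema4a was higher with the scaffold in each of the 8 lineages where it passed the minimum, and its interval lay above 1 in all 8. Its ratio was 11.8 (4.72 to 38.2) in precursor-like nuclei, 10.2 (4.47 to 27.4) in fibroblast-like nuclei, 9.75 (4.99 to 21.2) in oligodendrocyte-like nuclei, 8.91 (2.15 to 78.9) in astrocyte-like nuclei, 4.97 (2.89 to 9.07) in endothelial-like nuclei, 4.39 (2.79 to 7.13) in meningeal-like nuclei, 3.87 (1.66 to 10.1) in microglia-like nuclei and 1.92 (1.38 to 2.69) in neuron-like nuclei. It was 0.951 in neuron-like nuclei without those of mixed markers. Macrophage-like nuclei, the lineage of its highest level, had too few untreated nuclei for a ratio. The 43 microglia and macrophage markers, summed, were also higher in each of the 7 non-myeloid lineages, by ratios from 2.12 (astrocyte-like) to 4.04 (endothelial-like), with 34 to 40 of 43 markers detected in the untreated library and 39 to 41 in the scaffold library. The 14 neutrophil markers, summed, were higher in the same 7 lineages too, by ratios from 3.07 (astrocyte-like) to 21.6 (endothelial-like and neuron-like). Whether the Sema4a UMIs of the other lineages came from free or attached RNA of these cells was not tested. Sema4b was above 1 in 6 of 6 lineages and Sema4d in 7 of 7, and the lineages where thinned nuclei put them below 1 are named with their values.

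**Figure D5:**
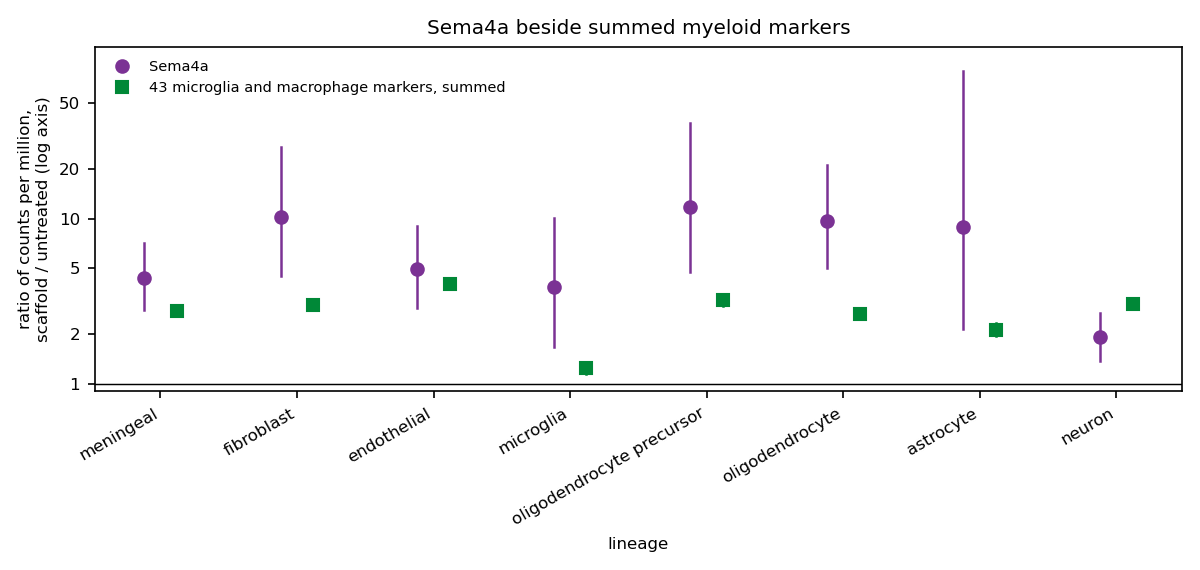
Scaffold over untreated ratio of CPM (log axis) for Sema4a (circles) and for the sum of 43 microglia and macrophage markers (squares) in 8 lineages, with 95% counting intervals. Both lie above 1 in each lineage shown; Sema4a is highest in oligodendrocyte precursors (11.8) and lowest in neurons (1.92), and the marker sum reaches 4.04 in endothelial nuclei.

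In meningeal-like nuclei 3 of 20 genes were past 2-fold higher with the scaffold (6.0% of 8695 genes), Sema4a, Sema4d (20.6 to 44.6 CPM, ratio 2.17) and Plxnd1 (49.4 to 99.6 CPM, ratio 2.02, 1.37 to 2.99), and 0 lower (2.77%). Over the alternatives Sema4d ranged from 1.81 to 3.93 and Plxnd1 from 1.64 to 2.24. Sema3a was lower (174 to 96.6 CPM, ratio 0.556, 0.411 to 0.744), as were Nrp1 (0.710), Plxna2 (0.744), Sema6d (0.644) and Sema3d (0.797), while Sema4b stood at 1.81. Within the 3 meningeal clusters Sema3a had a ratio of 0.542 (0.373 to 0.776) in the Slc26a7 nuclei and 0.116 (0.0136 to 0.451) in the Slc6a13 nuclei, and Plxna2 of 0.607 in the former. In the Ptgds and Igf2 nuclei Sema3a stood at 0.658 (0.342 to 1.21), so that it was below 1 in each of the 3. In these nuclei the 19 meningeal markers had a summed ratio of 0.740.

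In astrocyte-like nuclei Sema3a (104 to 29.6 CPM, 23 to 7 UMIs, ratio 0.285) and Sema3d (139.6 to 50.7 CPM, ratio 0.363) were 2 of 14 past 2-fold lower (4.02% of 5251 genes), 1 was higher (6.25%), and Sema3c had a ratio of 1.43. Over the alternatives Sema3a ranged from 0.165 to 0.508 and Sema3d from 0.119 to 0.560. In neuron-like nuclei Sema3a (52.8 to 20.9 CPM, 0.396) and Plxna3 (0.469) were 2 of 23 past 2-fold lower (2.02% of 9197 genes) and Plxnb2 (2.13) 1 of 23 higher (9.02%). Sema5a (344 to 184 CPM, 0.535, 0.454 to 0.629), Sema3d (0.599) and Sema3e (0.600) were also lower there. Sema3c (1.39), Sema4b (1.95) and Sema4d (1.77) stood higher. With nuclei thinned to 500 UMIs these 3 stood at 0.641, 0.816 and 0.490 and Sema3a at 1.22, and by the highest marker score Sema3a stood at 1.58. Plxna3 ranged from 0.263 to 0.620 over the alternatives and Plxnb2 from 1.90 to 3.85. In oligodendrocyte-like nuclei Sema3d (0.368) and Plxna3 (0.410) were 2 of 18 past 2-fold lower (2.19% of 7302 genes), and Sema4a, Sema4b (3.30), Sema3c (2.25) and Plxnb2 (2.18) 4 of 18 higher (10.1%), with Sema5b at 0.607, Plxna2 at 0.578, Plxnd1 at 1.76 and Nrp2 at 1.69. Thinned, Sema4b and Plxnb2 stood at 0.939 and Plxnd1 at 0.716, and at the finer clustering Sema4b and Plxnd1 stood at 0.868. Sema3d ranged from 0.338 to 0.935 over the alternatives, staying past 2-fold in 5 of 11, and Sema3c from 1.29 to 2.55, staying past it in 7 of 11. Plxna3 ranged from 0.319 to 0.947 and Sema5b from 0.278 to 1.04. In microglia-like nuclei Sema4a and Sema4d (2.99) were 2 of 11 past 2-fold higher (4.63% of 3561 genes), and 0 were lower (4.61%). Taking the lineages side by side, Sema3d was below 1 in 8 of 8, Sema3a in 5 of 5 and Plxna2 in 9 of 9, while Nrp2 was above 1 in 8 of 9 and Sema3c in 7 of 9. Lineages of the same libraries are not replicates, and the part of free or attached RNA in such counts was not tested.

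The HGF scaffold library was compared with the scaffold library, which is the shallower pair. Of 24 genes past the minimum over all nuclei, 0 were past 2-fold higher (2.15% of 11329 genes) and 2 lower (5.51%), Sema4f with 36 and 2 UMIs (ratio 0.222, 0.0259 to 0.862) and Sema4g with 41 and 5 UMIs (0.487, 0.150 to 1.23). The macrophage-like class made up 20.3% of scaffold and 41.5% of HGF scaffold nuclei. A setting chosen after seeing the data held lineage shares equal over the lineages of at least 50 nuclei in both libraries. Sema4f then stood at 0.268 and Sema4g at 0.731. This setting left out neuron-like nuclei, 9.04% of scaffold and 3.76% of HGF scaffold nuclei. They held 20 of the 36 scaffold Sema4f UMIs, so Sema4f at equal shares with neuron-like nuclei included was not tested. The interval left out 1 for Sema3c (0.860), Sema3d (0.673), Sema5a (0.759), Sema3e (1.23), Plxnb3 (1.39), Plxnd1 (1.30) and Nrp2 (1.11). The median log2 ratio was −0.02, against 0.03 over all genes.

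Within macrophage-like nuclei (439 and 376) Sema3c went from 626 UMIs (649 CPM) to 206 UMIs (416 CPM), a ratio of 0.642 (0.546 to 0.753), and Sema4a from 246 to 93 UMIs (255 to 188 CPM, 0.737, 0.575 to 0.940). Both were lower in the HGF scaffold library. In the nuclei led by Arg1 and Pde4d (261 and 244) Sema3c stood at 835 and 461 CPM, a ratio of 0.552 (0.454 to 0.669). In the nuclei led by Ccl21 and Lyz2 (178 and 132) it stood at 397 and 346 CPM, a ratio of 0.873 (0.647 to 1.17), and the difference between the 2 kinds was not tested. In the Arg1 nuclei Plxnd1 (222 to 129 CPM, 0.583) and Sema4d (135 to 82.9 CPM, 0.613) were lower as well, and the 24 macrophage markers had a summed ratio of 1.13 in the whole class. Sema3e (15 to 19 UMIs, 15.5 to 38.4 CPM, 2.47) and Sema3d (20 to 5 UMIs, 0.488) were 1 of 17 past 2-fold higher (3.54% of 7822 genes) and 1 lower (4.49%), both at few UMIs. Sema3e stood at 0.690 to 0.799 under 3 other ways of assigning nuclei to lineages, and Sema3d ranged from 0.346 to 0.646 over the alternatives. Sema6d had a ratio of 1.62, but 0.915 by the highest marker score.

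In endothelial-like nuclei Sema3c, Sema3a, Sema3d and Sema5b (25 to 3 UMIs, 0.473, 0.0914 to 1.55) were 4 of 20 past 2-fold lower (8.0% of 7437 genes) and Sema6b (15 to 8 UMIs, 2.10) 1 higher (3.76%). Over the alternatives Sema5b ranged from 0.168 to 0.916 and Sema6b from 1.09 to 4.86. In meningeal-like nuclei Sema5a went from 69 to 5 UMIs (103 to 31.1 CPM, 0.303, 0.0955 to 0.742) and with Sema5b (21 to 1 UMIs, 0.199, 0.00482 to 1.24, but 0.794 thinned) and Sema7a (19 to 1 UMIs, 0.220, 0.00530 to 1.39, but 1.70 thinned) made 3 of 18 past 2-fold lower (9.22% of 6932 genes), 0 being higher (2.93%). Sema3a was higher there (96.6 to 162 CPM, 1.67, 1.02 to 2.68, but 0.542 thinned), as was Plxna2 (545 to 740.0 CPM, 1.36), and the Slc26a7 nuclei were 129 of 433 and 57 of 109 of the class. Within them Sema3a had a ratio of 1.70 (1.0 to 2.81), Nrp1 of 2.05 and Sema3e of 0.616. In fibroblast-like nuclei Sema5a went from 135 to 34.3 CPM (0.253, 0.0786 to 0.635), 1 of 12 past 2-fold lower (8.77% of 4901 genes), and Sema4d stood at 2.14, 1 of 12 higher (4.16%). Sema5a ranged from 0.171 to 0.592 over the alternatives and Sema4d from 1.32 to 2.40. In oligodendrocyte-like nuclei Sema3e went from 173 to 387 CPM (99 and 67 UMIs, 2.24, 1.62 to 3.08), 1 of 16 past 2-fold higher (3.27% of 5815 genes), Sema4a had a ratio of 0.486 (1.26 by the highest marker score), 1 of 16 lower (7.45%), and Sema3c stood at 0.50 (up to 0.820 over the alternatives). Sema3c was thus below 1 in 4 of 5 lineages and Sema5a in 4 of 5.

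The other genes of the pathway were 54 receptors, effectors and neuropilin ligands chosen for their known roles. With the scaffold, 6 of 53 were past 2-fold higher over all nuclei and 2 lower (7.12% and 3.96% of all genes), with a median log2 ratio of 0.07. The 5 farthest from 1 were Cd72, a Sema4d receptor of immune cells (3.53 to 35.1 CPM, ratio 9.93, 6.33 to 16.4), Met, the HGF receptor that binds B plexins (22.4 to 116 CPM, 5.18, 4.29 to 6.28), Tyrobp, the adaptor of Trem2 (22.7 to 106 CPM, 4.68), the tyrosine kinase Fes, which acts downstream of plexins (14.3 to 48.4 CPM, 3.38), and the small GTPase Rhod (31 to 11 UMIs, 0.365). Met was among the 10 leading genes of the Arg1 macrophage cluster. Macrophage-like nuclei were 2.05% of untreated and 20.3% of scaffold nuclei, and the part of these shares in the sums was not tested. From scaffold to HGF scaffold, 1 of 52 was past 2-fold higher and 5 lower (2.15% and 5.51% of all genes). Here the 5 farthest from 1 were Rnd1, a GTPase that binds plexins (47 to 1 UMIs, 0.0850, 0.00211 to 0.497), the collapsin response mediators Dpysl5 (0.410) and Crmp1 (0.444), the adhesion molecule Cntn2 (0.446) and the neuropilin ligand Pgf (29 to 16 UMIs, 2.20). Met stood at 116 and 93.9 CPM (0.811, 0.670 to 0.977). Neuron-like nuclei were 9.04% of scaffold and 3.76% of HGF scaffold nuclei, and macrophage-like nuclei 20.3% and 41.5%. The part of these shares was not tested either.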

How the data were processed

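Nuclei of 3 libraries, 1 per group, were analysed. The deposited counts are whole UMIs per gene and nucleus, which the authors counted; the submitters' processing notes name Cell Ranger 6.0.1, and the genome build and annotation are not given in the sources used here. The rat genes, the lists and the rules for naming genes were chosen with earlier results of these data known.

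Nuclei with at least 200 genes and at most 5% mitochondrial UMIs were kept. They were clustered in scanpy 1.11.5 (2000 variable genes without the 26 genes, 30 principal components, 15 neighbours, Leiden resolution 1) and clusters were named from marker lists (299 of 330 entries found). Scrublet called 2 nuclei, 0.0376%, which is too few to have worked, so doublets remain; 319, 394 and 41 nuclei carried mixed markers. UMIs were summed per library and lineage, and levels have exact Poisson, shares exact Clopper-Pearson and ratios exact conditional 95% intervals, for counting error only. No test between groups was possible. A gene was named in a comparison when its ratio was past 2-fold or its interval left out 1, up to the 10 farthest from 1 in a lineage, and of the pathway genes the 5 farthest from 1 and Met. The ratio procedure was tested on simulated counts of whole libraries, drawn from the Poisson model that the intervals assume. Lineages, free RNA, doublets and differences between animals were not simulated. Promoters are from RefSeq, build GRCr8.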

Additional observations from a re-analysis of the deposited data

Results flagged for a closer look

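Plxnd1 went in opposite directions between lineages with the scaffold. Its scaffold over untreated ratio was 2.02 in meningeal-like, 1.85 in fibroblast-like, 1.76 in oligodendrocyte-like and 4.99 in oligodendrocyte precursor-like nuclei, each with an interval above 1, and 0.505 in endothelial-like nuclei, with an interval below 1. In oligodendrocyte-like nuclei it was 0.716 with nuclei thinned to 500 UMIs and 0.868 at Leiden resolution 2. The summed myeloid markers had ratios of 2.75, 2.98, 2.64 and 3.20 in these lineages, in the order given, and of 4.04 in endothelial-like nuclei. The summed endothelial markers had a ratio of 0.611 in endothelial-like nuclei. The part of either in Plxnd1 was not tested. Sema3a went in opposite directions between lineages from the scaffold to the HGF scaffold library. Its ratio was 1.67 in meningeal-like and 0.307 in endothelial-like nuclei, but the former was 0.542 with nuclei thinned. With 1 library per group neither difference was tested.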

How the results depend on the processing

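No paired analysis was possible because each group has 1 library, and for the same reason no replicate was left out. Of 975 values recomputed for 87 scaffold over untreated ratios, 841 stayed within their main interval, 116 moved and 18 changed direction. Of 351 for 33 HGF scaffold over scaffold ratios these were 313, 29 and 9. The totals include settings that change little. For scaffold over untreated, 87 of 87 stayed with at least 500 genes per nucleus, and 87 of 87 with ratios divided by the median of all genes. In the same comparison 53 of 87 stayed when thinned, 46 of 68 by the highest marker score and 9 of 19 with lineage shares held equal. The cause of the changes was not tested.

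For scaffold over untreated, the members past the fold were 4 higher with nuclei weighted equally, 4 lower with ratios divided by the median of all genes, 6 higher and 8 lower at a fold of 1.5, 1 higher when thinned, and 0 lower with lineage shares held equal; pathway genes gave 1 lower at a minimum of 50 UMIs. For HGF scaffold over scaffold, members gave 0 lower at a minimum of 50 UMIs and when thinned, and 1 lower with at least 500 genes per nucleus, without mixed nuclei, without the highest Scrublet scores and with lineage shares held equal. Pathway genes there gave 0 higher and 2 lower with nuclei weighted equally and 0 higher at a minimum of 50 UMIs. The last 2 member settings and the fibroblast sub-clusters were chosen after seeing the data. Lineage shares were held equal only over lineages of at least 50 nuclei in both libraries. The share of all genes past the fold was taken at the main settings only. These counts therefore show how the calls moved and cannot be set against all genes.

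Directions changed without mixed nuclei for Sema5b in endothelial-like (1.41) and Sema4a in neuron-like nuclei (0.951), and between the scaffold libraries for Sema6d in endothelial-like nuclei (0.982). Thinned to 500 UMIs, scaffold over untreated ratios were 0.900 for Sema4d in endothelial-like nuclei, 0.939 for Sema4b and Plxnb2 and 0.716 for Plxnd1 in oligodendrocyte-like nuclei, 1.22 for Sema3a, 0.641 for Sema3c, 0.816 for Sema4b and 0.490 for Sema4d in neuron-like nuclei and 0.561 for Nrp2 in precursor-like nuclei, and in meningeal-like nuclei HGF scaffold over scaffold ratios were 0.542 for Sema3a and 1.70 for Sema7a. At Leiden resolution 2 they were 1.06 for Sema6d in endothelial-like and 0.868 for Sema4b and Plxnd1 in oligodendrocyte-like nuclei, and between the scaffold libraries 0.690 for Sema3e in macrophage-like and 0.988 for Sema6d in endothelial-like nuclei. By the highest marker score they were 1.03 for Sema6d in fibroblast-like, 1.04 for Sema5b in oligodendrocyte-like and 1.58 for Sema3a in neuron-like nuclei, and between the scaffold libraries 0.739 for Sema3e and 0.915 for Sema6d in macrophage-like and 1.26 for Sema4a in oligodendrocyte-like nuclei. Clustering each library alone gave 0.799 for Sema3e in macrophage-like nuclei, and the Postn and Tnn sub-cluster gave 0.847 for Sema4d (5 and 8 UMIs), where the Col8a1 and Ism1 one gave 12.2 (1 and 2 UMIs). Depth limits the HGF scaffold library most.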
